A study of Mus musculus with 9 samples.

Results

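Genes of the circadian clock were followed in sorted proximal tubular epithelia of diabetic mice with and without dapagliflozin. The 10 genes, Arntl, Clock, Per1, Per2, Per3, Cry1, Cry2, Nr1d1, Nr1d2 and Dbp, were chosen by symbol from the 24421 genes listed, and all 10 were among the 15583 genes tested. The study asked how the transcriptome of these cells differs in type 2 diabetes and after inhibition of SGLT2, which takes glucose back from the filtrate. Poly(A) RNA of 9 mice was sequenced, 3 in each of 3 groups, and 1 library was made from each mouse. The db/m mice carry 1 mutant allele of the leptin receptor gene Lepr and served as non-diabetic controls. The db/db mice carry the mutation on both alleles, become obese and hyperglycemic, and were given vehicle. The db/db-dapa mice are db/db mice that were given dapagliflozin, an SGLT2 inhibitor, at 1.5 mg/kg/day in the drinking water for 8 weeks. All 3 groups were on a C57BL/6 background, carried the Slc34a1-driven CreERT2 allele and the R26tdTomato reporter, and had received 5 injections of tamoxifen from 8 weeks of age. The tdTomato label therefore marks cells in which the Slc34a1 locus, the gene of a phosphate transporter of proximal tubule cells, was active when tamoxifen was given. The cortex was digested for 30 min at 37 °C before sorting. The labels name the tissue only as kidney, and the sorting is described in the study's methods. The time of day at which each mouse was killed is not given in the sources used here, so group and time of collection cannot be told apart in any comparison of these genes.

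The mammalian clock is a feedback loop of transcription that runs in nearly every cell, with a period close to a day. ARNTL (also called BMAL1) and CLOCK form a dimer that binds E-box sequences and switches on the Per and Cry genes, Nr1d1, Nr1d2 and Dbp. The PER and CRY proteins return to the nucleus and repress the dimer, while NR1D1 and NR1D2 (REV-ERB alpha and beta) repress Arntl through ROR elements. DBP is an output factor that binds D-boxes. In a mouse kidney, Arntl and the E-box genes peak at opposite phases of the day, and transport in the tubule is known to follow the clock.

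Promoter windows from RefSeq (GRCm38.p6, the patch release of the mm10 build to which the reads were mapped), reaching from 250 bases before to 50 bases after a transcript start, were found for 9 of the 10 genes, with 13 windows in all, and Per2 has no entry. They were searched on both strands for the E-box CACGTG, the E-prime box CACGTT, the D-box TTANGTAA, the ROR element NTAGGTCA and the cAMP response element TGACGTCA. No match printed here overlaps another. Of all 32851 windows, 7.15% hold the E-box, 4.68% the E-prime box, 2.32% the D-box, 2.59% the ROR element and 1.79% the cAMP response element. Among the 9 genes with a window the E-box was found in 2 (Per1 and Cry1), the E-prime box in 3 (Cry1, Cry2 and Nr1d1), the D-box in 1 (Per3), the ROR element in 1 (Arntl) and the cAMP response element in 0. A gene counts here if any of its windows holds the letters, so these counts and the shares of windows are unlike measures. The windows of Clock, Nr1d2 and Dbp hold none of these letters. A match is a string of letters in this window and was not tested as a binding site.

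The following windows are shown because they hold the elements through which the limbs of the loop are known to be joined, with each match in capitals. Arntl carries the ROR element after its start (chr7:113207261-113207560, plus strand). Per1 carries the E-box (chr11:69098699-69098998, plus strand), and Cry1 an E-prime box and an E-box side by side (chr10:85185005-85185304, minus strand). Per3 carries the D-box at 2 places (chr4:151044616-151044915, minus strand). Ciart, a repressor of the dimer described below among the other clock genes, carries the E-box at 3 places (chr3:95882179-95882478, minus strand). Of the other clock genes, Tef, Bhlhe41 and Cipc also hold the E-box, in windows not shown.
Arntl: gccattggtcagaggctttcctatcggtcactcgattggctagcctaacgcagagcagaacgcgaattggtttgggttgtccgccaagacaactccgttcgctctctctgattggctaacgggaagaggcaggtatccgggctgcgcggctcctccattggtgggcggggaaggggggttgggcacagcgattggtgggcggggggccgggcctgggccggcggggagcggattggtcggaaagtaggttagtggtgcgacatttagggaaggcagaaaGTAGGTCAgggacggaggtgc
Per1: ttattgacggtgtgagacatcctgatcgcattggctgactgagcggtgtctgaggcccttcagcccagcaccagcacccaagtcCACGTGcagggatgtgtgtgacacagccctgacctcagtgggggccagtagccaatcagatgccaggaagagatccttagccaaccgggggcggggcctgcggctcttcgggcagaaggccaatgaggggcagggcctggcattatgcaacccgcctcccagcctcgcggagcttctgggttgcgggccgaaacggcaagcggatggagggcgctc
Cry1: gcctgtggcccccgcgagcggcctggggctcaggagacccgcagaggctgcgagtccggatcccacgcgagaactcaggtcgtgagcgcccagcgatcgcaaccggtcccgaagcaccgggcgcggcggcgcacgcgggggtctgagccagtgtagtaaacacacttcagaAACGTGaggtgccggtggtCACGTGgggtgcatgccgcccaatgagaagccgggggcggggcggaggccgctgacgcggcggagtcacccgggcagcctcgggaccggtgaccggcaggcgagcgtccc
Per3: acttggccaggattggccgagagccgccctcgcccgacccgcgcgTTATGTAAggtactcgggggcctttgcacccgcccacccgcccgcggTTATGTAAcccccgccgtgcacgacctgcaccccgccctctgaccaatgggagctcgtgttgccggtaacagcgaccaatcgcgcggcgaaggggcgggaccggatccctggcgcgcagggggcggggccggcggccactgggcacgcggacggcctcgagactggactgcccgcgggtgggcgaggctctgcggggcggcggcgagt
Ciart: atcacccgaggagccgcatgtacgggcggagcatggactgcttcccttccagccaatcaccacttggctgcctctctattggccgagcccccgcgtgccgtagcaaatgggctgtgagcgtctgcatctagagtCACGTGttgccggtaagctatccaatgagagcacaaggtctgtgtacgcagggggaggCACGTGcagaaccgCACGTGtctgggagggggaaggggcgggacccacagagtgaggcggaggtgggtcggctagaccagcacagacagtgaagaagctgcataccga

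The deposited values are estimated read counts, and they summed to 4817720 to 6571570 in db/m, 2733350 to 7635670 in db/db and 6981220 to 9033120 in db/db-dapa mice. The smallest library was that of db/db replicate 1. Db/db replicate 2 stood apart from the other mice in markers of red cells, which summed to 1462 CPM there and to at most 421 in any other mouse. It also had the highest sum of immediate-early genes (9119 CPM, at most 7087 in any other mouse). Db/db-dapa replicate 1 stood apart in markers of podocytes (214 CPM, at most 71 in any other mouse). Levels are given as CPM, counts brought to a common library size by TMM scaling, and folds as log2 fold changes from edgeR's quasi-likelihood test over all 9 mice, with p-values adjusted by the Benjamini-Hochberg method over all genes tested. A gene is called when its adjusted p is under 0.1 and its absolute log2 fold change over 1. The comparisons share mice: db/m mice are the controls of 3 of them, and db/db mice enter 3.

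Arntl, the rhythmic partner in the activating dimer (chr7:113207465-113314126 in GENCODE's annotation of GRCm38), had its lowest group mean in db/m mice, which were at 1.42, 1.92 and 1.55 CPM. It was found at 1.36, 7.80 and 4.67 CPM in db/db replicates 1, 2 and 3. In db/db-dapa mice it was at 7.24, 13 and 12.4 CPM. Each db/db-dapa mouse thus lay above each db/m mouse, while the db/db mice were spread out, replicate 1 at the level of db/m and replicate 2 within the range of db/db-dapa. The counts behind these values were low, 9, 11 and 7 in db/m, 4, 39 and 37 in db/db and 51, 99 and 110 in db/db-dapa mice. The annotated span of Arntl overlaps Gm45355, an antisense gene on the opposite strand. Whether reads were counted by strand is not stated, so some could be shared. Arntl rose in db/db-dapa against db/m mice, where the log2 fold change was 2.73 (standard error 0.51), adjusted p = 0.0511. It also rose in both db/db groups combined, against db/m (2.14, standard error 0.47, adjusted p = 0.0526). The value was 1.54 (standard error 0.52), adjusted p = 0.229 in db/db against db/m mice, and 1.19 (standard error 0.46), adjusted p = 0.854 in db/db-dapa against vehicle db/db mice, neither of them called. The call of Arntl was lost when db/m replicate 1, 2 or 3 or db/db-dapa replicate 2 or 3 was left out, with adjusted p from 0.120 to 0.252 in the first of these comparisons and from 0.122 to 0.239 in the second. Without db/db replicate 1 it was called in db/db against db/m mice as well (log2 fold change 1.91, adjusted p = 0.0753). In these bulk libraries, fewer cells expressing a gene and less RNA per cell cannot be told apart.

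Clock, which encodes the partner of ARNTL (chr5:76209868-76304792), was at 41.9, 54.6 and 38.6 CPM in db/m, 44.9, 48.4 and 75.2 in db/db and 56.4, 80.1 and 79.5 in db/db-dapa mice. Each db/db-dapa mouse lay above each db/m mouse, and among db/db mice replicate 3 alone stood with the higher ones. The annotated span of Clock overlaps Ube2n-ps1 and Gm43658 on the same strand, so reads could be shared with them. The log2 fold change was 0.68 (standard error 0.24), adjusted p = 0.208 in db/db-dapa against db/m mice, under the fold needed for a call. It was 0.50 (standard error 0.21), adjusted p = 0.233 for both db/db groups against db/m.

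Dbp, the output factor of the PAR bZIP family (chr7:45705088-45710203), went the other way. It was at 200.002, 139 and 169 CPM in db/m, 107, 84.8 and 79.8 in db/db and 71.8, 40.2 and 36.6 in db/db-dapa mice. The 3 groups did not overlap at all, with every db/m mouse above every db/db mouse and every db/db mouse above every db/db-dapa mouse. Dbp fell in db/db-dapa against db/m mice (-1.77, standard error 0.27, adjusted p = 0.0171), from 169 ± 30.7 to 49.5 ± 19.4 CPM (SD, n = 3 each). It also fell in both db/db groups against db/m (-1.34, standard error 0.22, adjusted p = 0.0132). This call held with each mouse left out in turn and under every other setting tried, whereas the call in db/db-dapa against db/m mice was lost without db/db-dapa replicate 2 (adjusted p = 0.135). Each single step was smaller and was not called: -0.91 (standard error 0.26), adjusted p = 0.163 in db/db against db/m, and -0.87 (standard error 0.26), adjusted p = 0.854 in db/db-dapa against vehicle db/db mice. With exact two-sided permutation tests on log2(CPM + 1), Dbp gave p = 0.0238 for 6 mice against 3, where the smallest possible p is 0.0119. The exact permutation test of 3 against 3 cannot go below p = 0.1, the value that Dbp reached in all 3 of them. The 3′ end of Dbp overlaps that of Sphk2, a sphingosine kinase gene on the opposite strand (chr7:45709467-45718002), and whether reads were counted by strand is not stated, so part of the reads could be shared. The deposited values of both genes held fractions in several mice, such as 1270.5 for Dbp and 763.5 for Sphk2 in db/m replicate 1. Fractions are what divided reads would leave, but how the values were made is not given. Sphk2 was at 120.3, 94.6 and 119 CPM in db/m, 95.8, 77.2 and 72.5 in db/db and 72.7, 67.2 and 68.5 in db/db-dapa mice, and its log2 fold change was -0.56 (standard error 0.14), adjusted p = 0.0851 for both db/db groups against db/m.

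Set against each other within a library, where scaling plays no part, there were 0.709, 1.39 and 0.921 counts of Arntl per 100 counts of Dbp in db/m mice. The ratio was 1.27, 9.20 and 5.85 in db/db and 10.1, 32.4 and 34 in db/db-dapa mice. Only db/db replicate 1 lay within the range of db/m mice among the 6 db/db and db/db-dapa mice.

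**Figure D1:**
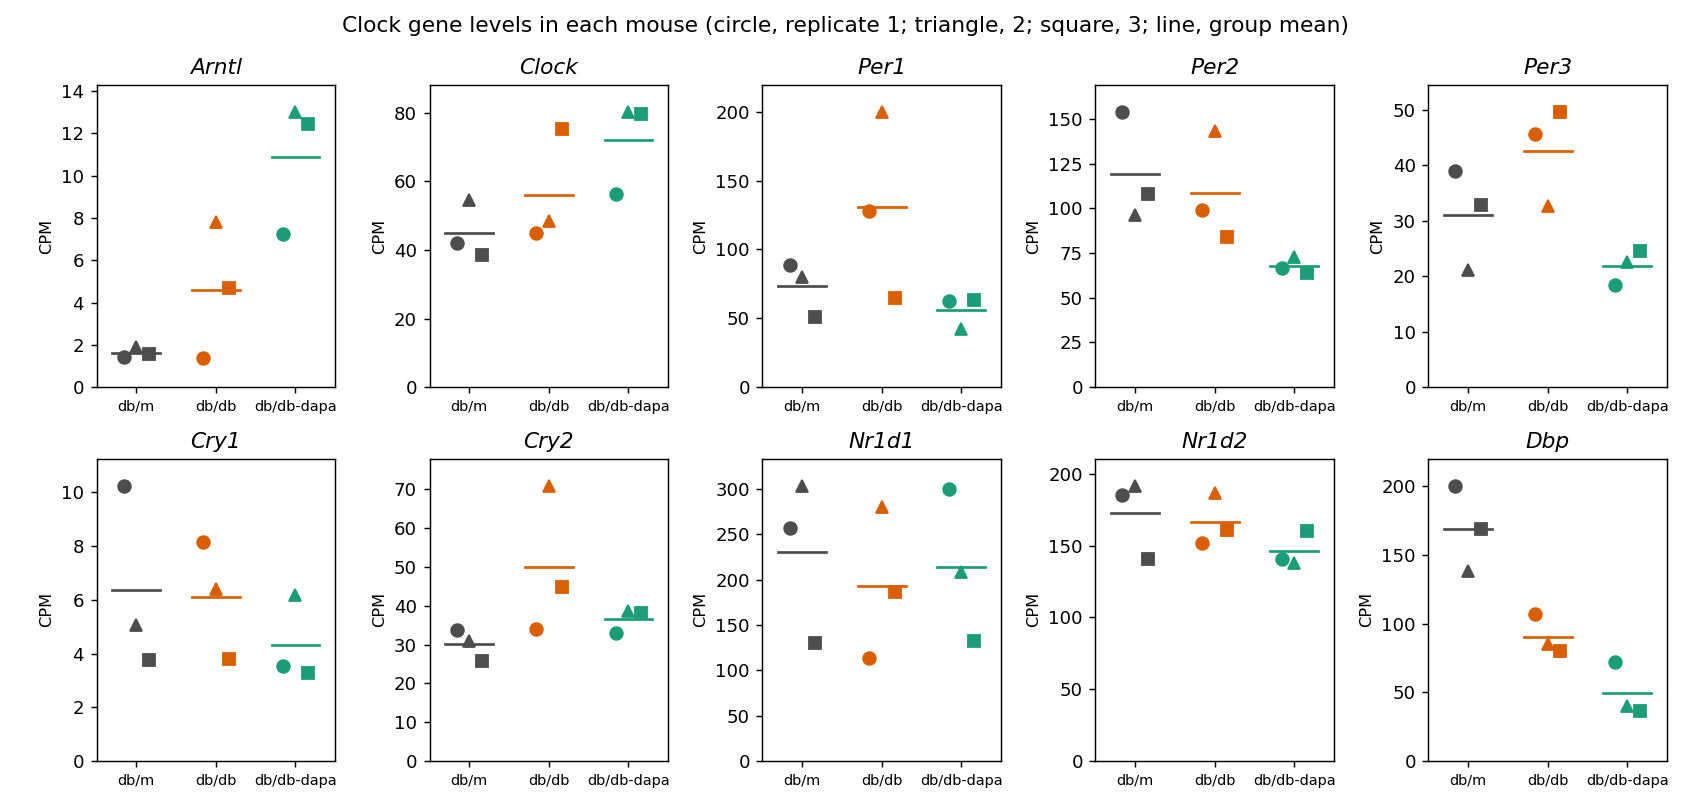
Level of each of the 10 clock genes in each mouse, in CPM on a linear axis that starts at 0 (x axis, group; circle, triangle and square, replicates 1, 2 and 3; line, group mean). Arntl reaches 13 CPM in a db/db-dapa mouse while the db/m mice stay at or below 1.92, and Dbp steps down from group to group without overlap.

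The Per genes encode the repressors that time the return of the loop, and Per1 and Per2 also respond acutely to light, hormones and cAMP. Per1 (chr11:69095217-69109960) was at 88.3, 79.9 and 51.1 CPM in db/m, 128, 199 and 64.8 in db/db and 62.9, 42.3 and 63 in db/db-dapa mice. It varied most among db/db mice, where replicate 3 lay close to the db/db-dapa mice and replicate 2 far above all others. The log2 fold change was -1.22 (standard error 0.36), adjusted p = 0.854 in db/db-dapa against vehicle db/db mice and 0.83 (standard error 0.36), adjusted p = 0.330 in db/db against db/m mice. Neither was called, but without db/db replicate 3 both were, at -1.54 (adjusted p = 0.0612) and 1.16 (adjusted p = 0.0696). Without db/db replicate 2, the mouse with the highest immediate-early and red cell sums, the values of Per1 in the same comparisons were -0.77 and 0.38, neither of them called, and the part of that library's other genes in its Per1 level was not tested.

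Per2 (chr1:91415982-91459324) was at 154, 96.1 and 108 CPM in db/m and 99.2, 143 and 83.7 in db/db mice. In db/db-dapa mice it was at 66.4, 72.6 and 63.7 CPM, below every mouse of the other groups. Its log2 fold change was -0.82 (standard error 0.23), adjusted p = 0.145 against db/m and -0.69 (standard error 0.23), adjusted p = 0.854 against db/db mice. Per3 (chr4:151003652-151044665), the member of the family least needed for rhythm, was at 38.9, 21.1 and 32.9 CPM in db/m, 45.5, 32.6 and 49.5 in db/db and 18.5, 22.6 and 24.5 in db/db-dapa mice. The db/db-dapa mice lay below every db/db mouse and overlapped with db/m mice. The log2 fold change against db/db mice was -0.96 (standard error 0.25), adjusted p = 0.854. Per3 overlaps the annotated span of Camta1 on the same strand, so its reads could be shared with that gene. The deposited values of Per3 and Camta1 were whole numbers in all 9 mice, whereas Dbp and Nr1d1 had fractions in some.

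The Cry genes encode the partners of the PER proteins and the stronger repressors of the dimer. Cry1 (chr10:85131700-85185064) was low throughout, at 10.2, 5.06 and 3.77 CPM in db/m, 8.16, 6.40 and 3.79 in db/db and 3.55, 6.17 and 3.28 in db/db-dapa mice, and the groups overlapped in every comparison. Its values ran from -0.57 to -0.11 on the log2 scale over the 4 comparisons, with adjusted p of at least 0.491. Cry2 (chr2:92403646-92434043) was at 33.7, 30.9 and 25.8 CPM in db/m, 34, 70.8 and 44.8 in db/db and 32.9, 38.7 and 38 in db/db-dapa mice. Each db/db mouse lay above each db/m mouse, though db/db replicate 1 did so by a small margin, and the log2 fold change was 0.73 (standard error 0.25), adjusted p = 0.225. The highest level was again that of db/db replicate 2, and without this mouse the value of Cry2 was 0.40 (adjusted p = 0.377). The annotated span of Cry2 overlaps D930015M05Rik on the opposite strand, so reads could be shared with it.

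Nr1d1 and Nr1d2 encode the nuclear receptors that repress Arntl. Nr1d1 (chr11:98767932-98775333) was at 257, 303 and 130.1 CPM in db/m, 114, 280.3 and 186 in db/db and 300.1, 208 and 132 in db/db-dapa mice. Values of each group ranged over more than the distance between the group means, and the log2 fold change was -0.25 (standard error 0.39), adjusted p = 0.810 in db/db against db/m and -0.11 (standard error 0.39), adjusted p = 0.898 in db/db-dapa against db/m mice. The direction of the value of Nr1d1 changed when single mice were left out. Its 3′ end overlaps Thra on the opposite strand, which was at 18.7 ± 2.46, 18.3 ± 7.80 and 21.5 ± 3.49 CPM in db/m, then db/db, then db/db-dapa mice (SD, n = 3 each). Nr1d2 (chr14:18204054-18239127) was at 186, 191 and 141 CPM in db/m, 152, 187 and 161 in db/db and 141, 138 and 160.2 in db/db-dapa mice. It was the steadiest of the 10 genes, with log2 fold changes between -0.24 and -0.05 and adjusted p of at least 0.459.

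Levels can be compared between genes only per length, here per kb of the longest annotated transcript. In db/m mice the order was Dbp (92 ± 16.7 CPM per kb, SD, n = 3), Nr1d1 (84.6 ± 33), Nr1d2 (37 ± 5.97), Per2 (20.5 ± 5.21), Per1 (15.7 ± 4.19), Cry2 (7.57 ± 1.01), Per3 (5.16 ± 1.51), Clock (4.62 ± 0.866), Cry1 (2.10 ± 1.13) and Arntl (0.408 ± 0.0649). Dbp and Nr1d1, Per2 and Per1, and Per3 and Clock, neighbours in this order, differed by less than the larger of their SDs. In db/db-dapa mice, Dbp was at 27 ± 10.5 CPM per kb and came after Nr1d1 (78.5 ± 30.9) and Nr1d2 (31.3 ± 2.63). From Nr1d2 it differed by less than its own SD. Arntl, at 2.73 ± 0.795 CPM per kb, came before Cry1 (1.43 ± 0.528) in that group.

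In db/db against db/m mice, 0 of the 10 clock genes were called, where 1.24% of all genes tested were. An unadjusted p under 0.05 was found for 4 of them (Arntl, Per1, Cry2 and Dbp), against 13.7% of all genes. The exact permutation test gave p = 0.4 for Arntl, 0.3 for Per1 and 0.1, its smallest possible value, for Cry2 and Dbp. The groups did not overlap for 2, Cry2 on the higher and Dbp on the lower side, against 16.4% of all genes. DESeq2 called Arntl (adjusted p = 0.0999) and limma called 0 of the 10. The median log2 fold change of the 10 genes was 0.14, beside 0.02 over all genes tested.

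In db/db-dapa against vehicle db/db mice, 4 of the 10 clock genes were lower without overlap, Per1, Per2, Per3 and Dbp, where 5.29% of all genes were and 10.2% did not overlap in either direction. None of the 15583 genes was called by edgeR (0%), so 0 of the 10 were, and the lowest adjusted p was 0.854. At an unadjusted p under 0.05 there were 5 of the 10, these 4 and Arntl, the one on the higher side, against 5.19% of all genes. The values of the 4 genes kept their sign with each mouse left out, from -1.54 to -0.77 for Per1, -0.84 to -0.43 for Per2, -1.12 to -0.81 for Per3 and -1.22 to -0.67 for Dbp. The median of the 10 was -0.46, beside -0.01 over all genes. Other tools differed here: DESeq2 called 13 genes and none of the 10, limma on log2(CPM + 1) called 0, and limma voom with a quality weight for each mouse called 449 genes, Per1 and Dbp among them.

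In db/db-dapa against db/m mice, 2 of the 10 were called, Arntl on the higher and Dbp on the lower side, where 1.05% of all genes were called. At an unadjusted p under 0.05 there were 4 (Arntl, Clock, Per2 and Dbp), against 18.2% of all genes. The same 4 did not overlap between the groups, against 28.1% of all genes. The median of the 10 was -0.31, beside -0.02 over all genes. With db/db-dapa replicate 2 left out, 0 of the 10 and 14 genes in all were called.

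When both db/db groups were set against db/m mice, the same 2 genes were called, where 2.02% of all genes were. At an unadjusted p under 0.05 there were 5 (Arntl, Clock, Per2, Cry2 and Dbp), against 19% of all genes. Dbp was the one gene of the 10 whose 6 and 3 mice did not overlap, against 9.73% of all genes. The median of the 10 was -0.08, beside -0.01 over all genes.

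**Figure D2:**
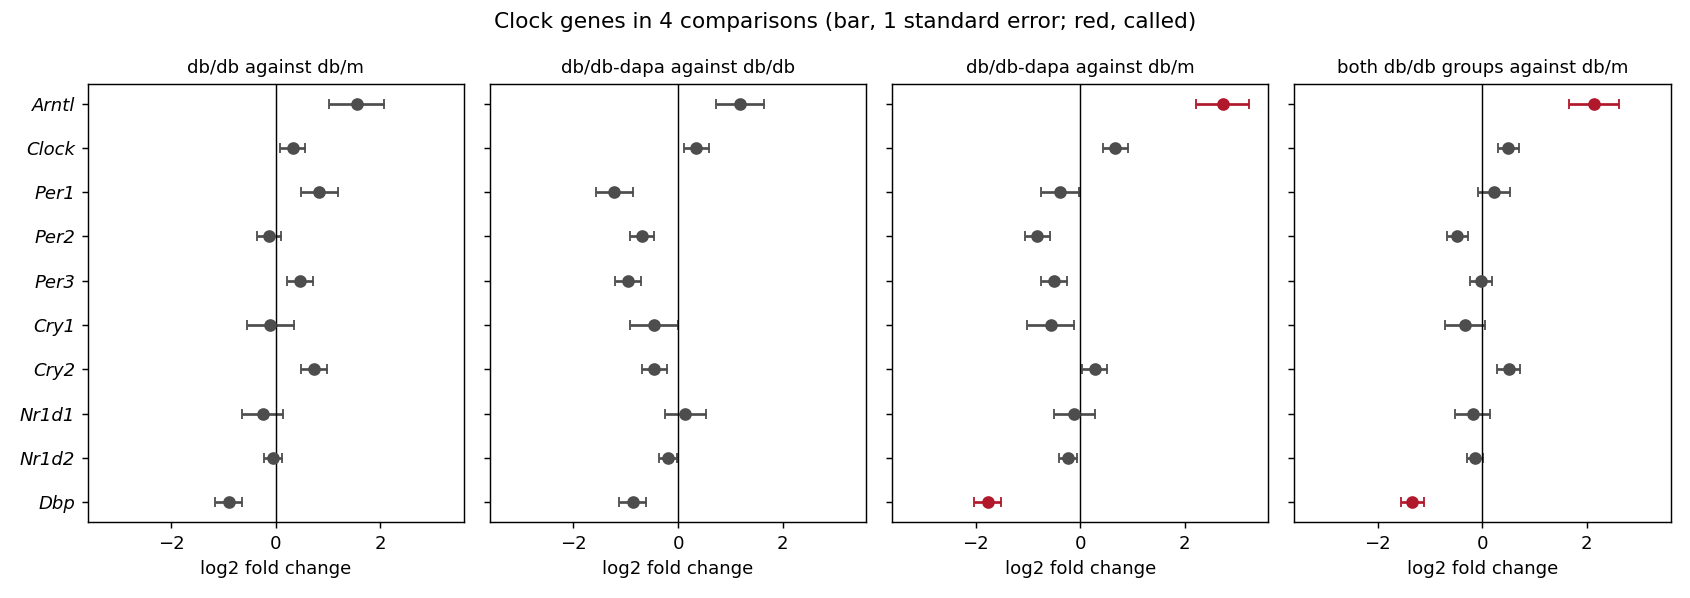
Log2 fold change of the 10 clock genes (rows) in the 4 comparisons (panels) from edgeR's quasi-likelihood test, with bars of 1 standard error and called genes in red. Arntl and Dbp, at 2.73 and -1.77, are called in db/db-dapa against db/m mice, and Per1, Per2, Per3 and Dbp lie to the left of 0 in db/db-dapa against vehicle db/db mice.

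Over the 9 mice, Arntl was set against each of the other 9 genes on log2(CPM + 1). With Dbp, Pearson's r was -0.924 (exact permutation p = 0.000424, 0.00382 adjusted over the 9 relations) and Spearman's rho was -0.833 (exact permutation p = 0.00827, adjusted 0.0485). Without db/db-dapa replicate 2 and db/db replicate 1, the mice farthest from the median of Arntl, r was -0.958. The deviations of the mice from their group means, in which the differences between groups are taken out, had r = -0.657 as a description. With Clock, r was 0.788 (exact permutation p = 0.0197, adjusted 0.0885) and rho was 0.817 (exact permutation p = 0.0108, adjusted 0.0485). Pearson's r with Clock was 0.697 without the same mice and 0.469 for the deviations. Of all 9 genes the value for the deviations was farthest from 0 for Cry2, at 0.869, ahead of Dbp, and the other 6 lay between -0.272 for Per3 and 0.486 for Nr1d2. Over the 9 mice, the genes other than Dbp and Clock ranged from r = -0.588 for Per2 to 0.513 for Cry2, with exact permutation p-values, adjusted over the relations, of at least 0.302. The mice belong to 3 groups, so the pooled values hold the differences between groups as well as those between mice. The permutations exchanged mice across the groups, so their p-values do not separate the 2 either.

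**Figure D3:**
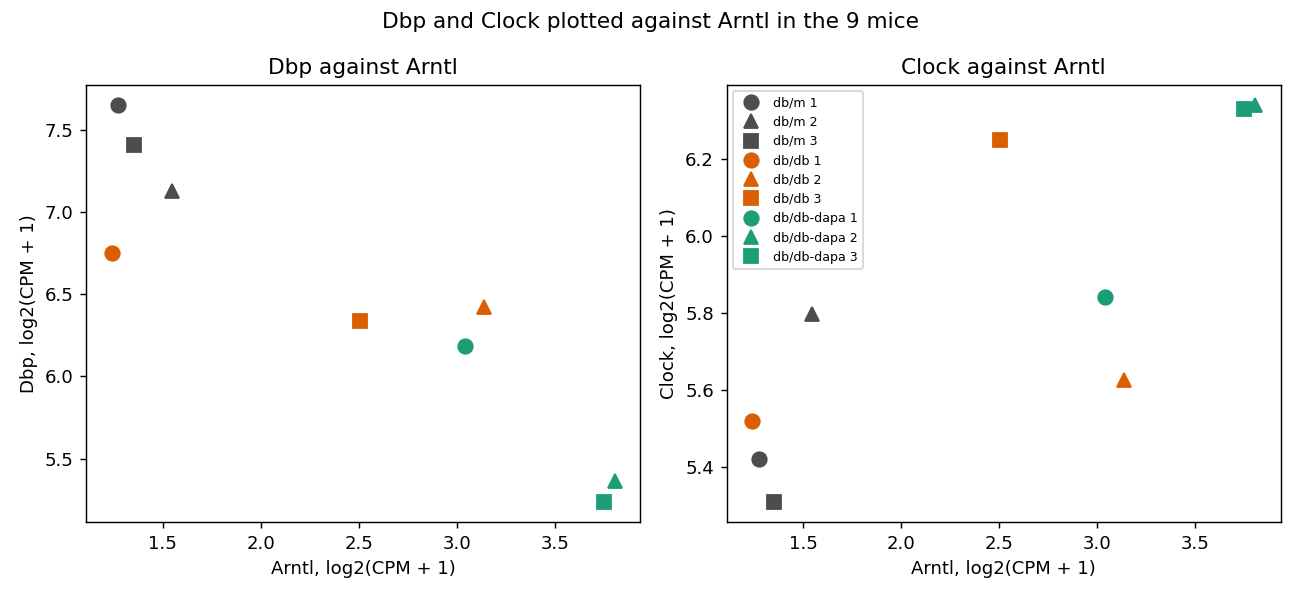
Dbp (left) and Clock (right) against Arntl in each of the 9 mice, all on log2(CPM + 1) (color, group; symbol, replicate). Mice with more Arntl tend to have less Dbp (r = -0.924 with the differences between groups included, -0.657 for the deviations from group means). On the Arntl axis db/db replicate 1 lies beside the db/m mice.

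Mice of a group differed from each other to very unequal degrees. The pooled SD around the group means, on log2(CPM + 1), was 0.628 for Nr1d1, 0.615 for Arntl, 0.558 for Per1 and 0.516 for Cry1, where the median of all genes tested was 0.303. These 4 lay at the 92.4, 91.8, 88.6 and 85.3 percentiles. Dbp, at 0.358, Clock, Per2, Per3 and Cry2 lay between the 51.4 and 62.6 percentiles, and Nr1d2, at 0.180, at the 15.4 percentile. This order depends on the level of a gene. Among the 1000 genes nearest in level, Nr1d1 and Per1 lay at the 97.8 and 95.1 percentiles, while Arntl (79.1) and Cry1 (69.5) were no longer set off from Dbp (78.3), Cry2 (74.8), Per3 (72.5), Clock (72.2) and Per2 (68), and Nr1d2 stayed lowest, at 29.7.

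Of 19 further clock genes, 18 were tested (Rorb was too low). In the 4 comparisons 0 of the 18 were called, where 0% to 2.02% of all genes were, depending on the comparison. An unadjusted p under 0.05 was found for 0 of them in db/db against db/m (13.7% of all genes), 3 in db/db-dapa against vehicle db/db (5.19%), 4 in db/db-dapa against db/m (18.2%) and 3 in both db/db groups against db/m (19%). Their median log2 fold changes in these comparisons were 0.05, 0.02, 0.05 and -0.02. Npas2, which encodes a stand-in for CLOCK, had the highest value in each comparison. It was at 0.157, 1.92 and 0.444 CPM in db/m, 0.680, 0.800 and 4.55 in db/db and 3.97, 11 and 7.92 in db/db-dapa mice. The counts were 1, 11 and 2 in db/m, 2, 4 and 36 in db/db and 28, 84 and 70 in db/db-dapa mice. The db/db-dapa mice lay above the db/m mice without overlap, db/db replicate 3 stood with the former, and the log2 fold change was 3.15 (standard error 0.83), adjusted p = 0.123. Ciart, one of several of these genes with an E-box, was at 52.6, 41.9 and 28.4 CPM in db/m, 22.1, 51.4 and 13.4 in db/db and 17.2, 7.48 and 10.5 in db/db-dapa mice. A relation of the E-box to these levels was not tested. The db/db-dapa mice lay below the db/m mice without overlap, and the log2 fold change was -1.81 (standard error 0.46), adjusted p = 0.112. Neither gene passed the threshold.

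Bhlhe40, a further repressor that binds E-boxes, was at 234, 194 and 141 CPM in db/m, 166, 264 and 225 in db/db and 148, 133 and 97.6 in db/db-dapa mice. Each db/db-dapa mouse lay below each db/db mouse. Of the 18 further clock genes 1 was lower without overlap in this comparison, where 5.29% of all genes were. The log2 fold change of Bhlhe40 was -0.79 (standard error 0.24), adjusted p = 0.854. For its relative Bhlhe41 the value in this comparison was -0.44 (standard error 0.51), adjusted p = 0.886. Tef and Hlf, relatives of Dbp that bind the same D-boxes, did not share its pattern of values, with -0.25 (standard error 0.21), adjusted p = 0.521 and 0.59 (standard error 0.28), adjusted p = 0.294 in db/db-dapa against db/m mice. The difference between these genes and Dbp was not tested. Nfil3, which competes with them for D-boxes, was at 0.36 in the same comparison, and Rora, an activator at ROR elements, was at 0.13 (adjusted p of at least 0.734 for both).

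**Figure D4:**
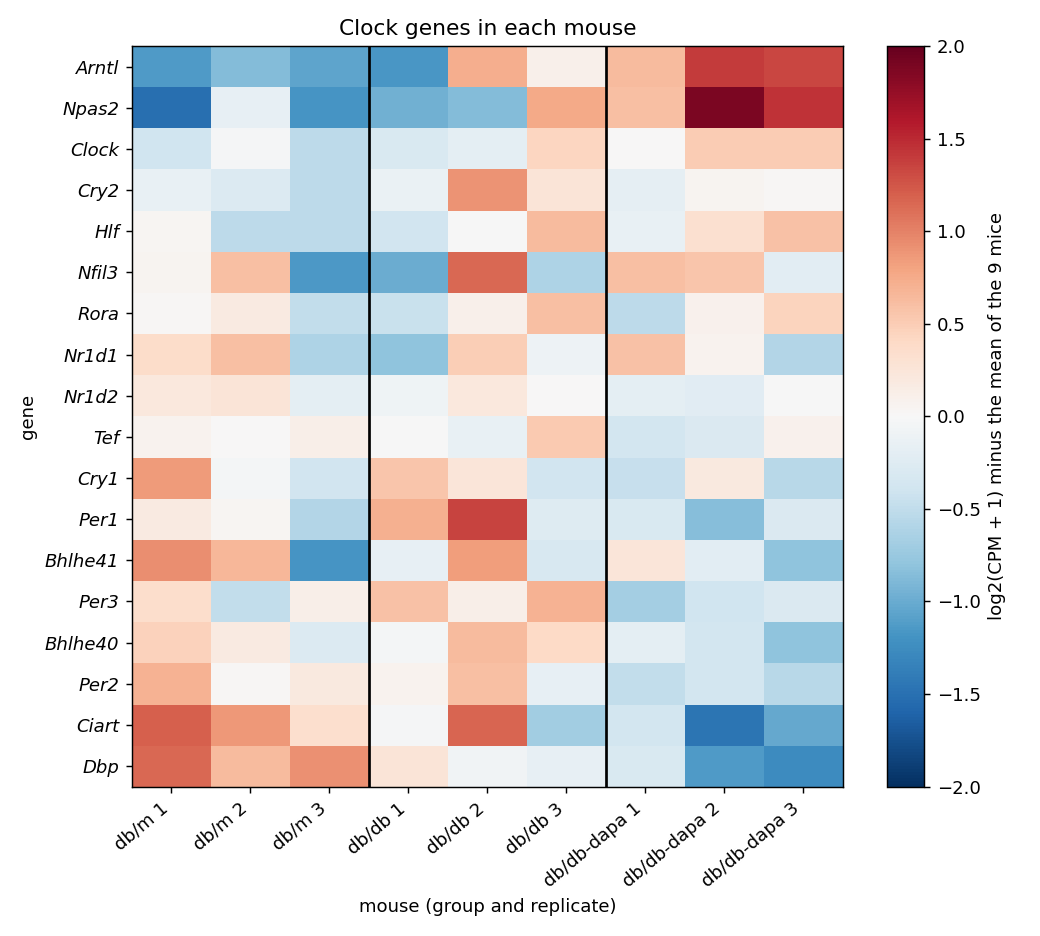
Clock genes (rows) in each of the 9 mice (columns, in groups parted by lines), as log2(CPM + 1) minus the mean of the 9 mice, red above and blue below it, with the color scale ending at 2 in either direction. Arntl and Npas2 at the top are red in db/db-dapa replicates 2 and 3 where Ciart and Dbp at the bottom are blue, and db/db replicate 3 resembles them in Npas2 and Ciart.

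Outputs and inputs of the clock were followed with lists of symbols. Of 15 genes known as clock outputs in the kidney or other tissues, Sgk1, a kinase that controls sodium transport, was the one called, where 1.24% of all genes were in db/db against db/m, 1.05% in db/db-dapa against db/m and 2.02% in both db/db groups against db/m. It was at 161, 94.2 and 92.6 CPM in db/m, 299, 329 and 307 in db/db and 274, 179 and 267 in db/db-dapa mice, higher in every db/db and db/db-dapa mouse than in any db/m mouse. Sgk1 rose in db/db against db/m (1.42, standard error 0.25, adjusted p = 0.0239), in db/db-dapa against db/m (1.05, standard error 0.25, adjusted p = 0.0987) and in both db/db groups against db/m (1.24, standard error 0.22, adjusted p = 0.0227). The lowest output against db/m was Alas1, the first enzyme of heme synthesis, at -0.96 (standard error 0.23), adjusted p = 0.0891 in db/db and -0.98 (standard error 0.22), adjusted p = 0.0928 in db/db-dapa mice, just under the fold needed for a call. The highest was Slc9a3, the sodium-hydrogen exchanger NHE3 of the proximal tubule, at 1.88 (standard error 0.59), adjusted p = 0.191 in db/db and 1.92 (standard error 0.59), adjusted p = 0.171 in db/db-dapa mice. It was at 18, 30.9 and 12.9 CPM in db/m, 25.5, 44 and 156 in db/db and 48, 78.5 and 108 in db/db-dapa mice, and did not pass the threshold. Between db/db-dapa and vehicle db/db mice 0 of the 15 were called (0% of all genes), and 5 were lower without overlap, Wee1, Usp2, Sgk1, Klf10 and Rbm3, where 5.29% of all genes were. The values in this comparison ran from -0.86 (standard error 0.35) for Klf10 to 0.30 (standard error 0.47) for Klf9. The medians of the list were 0.23 in db/db against db/m, -0.29 in db/db-dapa against vehicle db/db and -0.03 in db/db-dapa against db/m mice.

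Per1 also answers to glucocorticoids. Of 7 glucocorticoid-responsive genes, which include Per1 and Sgk1, Sgk1 was the one called in each comparison with db/m mice, beside the 1.24%, 1.05% and 2.02% of all genes given above. Between db/db-dapa and vehicle db/db mice 0 were called (0% of all genes). In the latter 4 of the 7 were lower without overlap, Per1, Sgk1, Fkbp5 and Zbtb16, where 5.29% of all genes were. Per1 is itself one of the 10 clock genes, and Sgk1 is among the outputs above. For Zbtb16 the margin was small, 5.54 CPM in db/db-dapa replicate 1 against 5.60 in db/db replicate 2. The lowest was Zbtb16, at -1.38 (standard error 0.70), adjusted p = 0.854, and the highest was Klf9 with the value above. In db/db-dapa against db/m mice the lowest was Tsc22d3, at -0.96 (standard error 0.26), adjusted p = 0.138, and in db/db against db/m mice Errfi1, at -0.38 (standard error 0.20), adjusted p = 0.418. The median of the list was 0.33, -0.61 and -0.39 in db/db against db/m, db/db-dapa against vehicle db/db and db/db-dapa against db/m mice. The part of glucocorticoids in the values of the clock genes was not tested.

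Genes that respond to handling of cells were followed because digestion and sorting take place after a mouse is killed. Of 17 immediate-early genes, 0 were called in any comparison, where 0% to 2.02% of all genes were, depending on the comparison. Their values ran from -0.56 (standard error 0.40) for Atf3 to 0.95 (standard error 0.52) for Klf2 in db/db against db/m, from -0.88 (standard error 0.51) for Nr4a1 to 0.45 (standard error 0.41) for Klf6 in db/db-dapa against vehicle db/db and from -1.06 (standard error 0.37) for Ier3 to 0.60 (standard error 0.48) for Fosb in db/db-dapa against db/m mice. Their medians were 0.26, -0.24 and 0.18 in that order. The summed level of the 17 genes was 4412 to 5097 CPM in db/m, 3270 to 9119 in db/db and 4116 to 7087 in db/db-dapa mice, highest in db/db replicate 2, which also had the highest Per1 and Cry2 levels. Their part in these levels was not tested.

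Heat-shock genes have a daily rhythm that follows body temperature, and they also respond to digestion. All 10 had lower values in db/db than in db/m mice, as had 48.4% of all genes, with a median of -0.81, and 1 was called (1.24% of all genes). This was Dnajb1, the lowest of the list, a co-chaperone at 246, 236 and 246 CPM in db/m, 118, 101 and 98 in db/db and 279, 119 and 189 in db/db-dapa mice. It fell in db/db against db/m mice (-1.20, standard error 0.26, adjusted p = 0.0657), and the highest gene of the list, Hsf1, was at -0.11 (standard error 0.17). Between db/db-dapa and vehicle db/db mice 8 of the 10 had higher values, as had 48.7% of all genes, with a median of 0.60. Of the list 0 were called (0% of all genes), with values from -0.28 (standard error 0.72) for Hspb1 to 1.12 (standard error 0.23) for Hsp90aa1. The summed level of the 10 genes was 9800 to 12281 CPM in db/m, 5191 to 6717 in db/db and 7574 to 12376 in db/db-dapa mice. Their part in the values of the clock genes was not tested.

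The make-up of the sorted cells was checked with marker lists. Markers of the proximal tubule summed to 43070 to 53824 CPM in db/m, 24710 to 29898 in db/db and 29377 to 32321 in db/db-dapa mice. The lower sums come from 1 gene, Kap. Without it, a step taken after its values were seen, the other 9 summed to 18065 to 19088 CPM in db/m, 23241 to 26753 in db/db and 23685 to 26416 in db/db-dapa mice, higher in each db/db and db/db-dapa mouse than in any db/m mouse. Of the 10 genes, Kap was the one called in each comparison with db/m mice (1.24%, 1.05% and 2.02% of all genes). It was lower in db/db and db/db-dapa mice (-3.07, standard error 0.27, adjusted p = 0.000360 for both db/db groups), at a mean of 3882 against 29402 CPM, while the other 9 had values above 0 in that comparison. Of 3 markers of the thick ascending limb, Umod was the one called, in both db/db groups against db/m (2.02% of all genes, -1.38, standard error 0.35, adjusted p = 0.0773), and the 3 summed to 752 to 1513, 308 to 983 and 384 to 493 CPM in db/m, then db/db, then db/db-dapa mice. For markers of the distal tubule, collecting duct, podocyte, endothelium, fibroblast, macrophage, lymphocyte and red cell, 0 were called in any comparison, where 0% to 2.02% of all genes were. Lists this short would hold few called genes at these shares, so the count does not show that the make-up was alike. Collecting duct markers summed to 177 to 554, 202 to 381 and 127 to 218 CPM, and distal tubule markers to 286 to 869, 362 to 658 and 329 to 396 CPM, in the same order of groups. Red cell markers summed to 147 to 421, 97.9 to 1462 and 29.6 to 297 CPM and podocyte markers to 27.7 to 51.1, 31.2 to 71 and 16.2 to 214 CPM, with the peaks in the mice named at the start. Lymphocyte markers did not exceed 2.60 CPM in any mouse. Endothelial markers reached 125 CPM and fibroblast markers 11.4 CPM at most, both in db/db-dapa replicate 1, and macrophage markers 79.5 CPM, in db/db replicate 1. All 5 collecting duct markers had lower values in db/db-dapa than in db/m mice, as had 51.5% of all genes, with a median of -1.26. The part of other cell types in the values of the clock genes was not tested.

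Among all other genes tested, the 3 whose pattern over the 9 mice was most like that of Arntl were Syap1 (r = 0.962), Zscan12 (r = 0.961) and Cecr2 (r = 0.960). Cecr2 was at 6.77, 8.90 and 6.66 CPM in db/m, 8.16, 13.8 and 12.1 in db/db and 11.9, 14.8 and 16.3 in db/db-dapa mice. Those most like Dbp were Rps6ka6 (r = 0.956), 3110062M04Rik (r = 0.955) and Spon1 (r = 0.952), and Rps6ka6 was at 4.25, 4.01 and 5.55, 3.40, 2.60 and 2.78 and 1.85, 1.44 and 1.36 CPM. They are the highest of a very large number of correlations, and are given as a description.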

How the data were processed

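RNA of sorted tdTomato-positive cells from 9 mice was analysed, grouped by the sample labels. Per the labels and the study's methods, the authors made stranded poly(A) libraries and mapped single-end reads to mm10 with TopHat2 2.0.13 and Bowtie2 2.2.3, with SAMtools 0.1.19 and Cufflinks 2.2.1 also named. The table the authors deposited is named as FPKM but holds estimated counts (85.9% of its values above 0 are whole numbers), and how these were made, or whether strand was used, is not given in the sources used here. It has 24421 rows, 6100 of them at 0 in all mice, and 0 unnamed rows. The design anticipated this: estimated counts were rounded, genes at 0.3 CPM or more in at least 2 of the 9 mice were kept, and 1 model was fitted to all mice in edgeR 4.0.16 (quasi-likelihood test in its earlier form, TMM scaling, R 4.3.3), checked on simulated data. The standard error was derived from the F value. Alternatives used DESeq2 1.42.0, limma 3.58.1 and other scalings, filters, fits and sets of mice. Replicates are separate animals. Low counts limit precision: 3 counts equal 0.339 to 1.02 CPM depending on the library. Exact two-sided permutation tests of single values used log2(CPM + 1), a scale that understates changes of low genes.

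The clock genes and all gene lists were chosen with earlier results of these data known. All 10 clock genes are described. Of other clock genes, those with an adjusted p under 0.1 and 9 chosen transcription factors were named, of the remaining lists the called, highest and lowest genes, and for Arntl and Dbp the 3 genes most like each. Sphk2 and Thra, named for their overlap, Kap and Umod, named because they were called, and Wee1, Usp2, Rbm3 and Fkbp5, named because their groups did not overlap, fall outside this rule and were added after their values were seen. Cipc, named for the E-box in its window, also falls outside this rule. Gene positions and lengths are from GENCODE's annotation of GRCm38, and Noct is listed under an older symbol. Of the list of further clock genes, 1 is not reported here.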

Additional observations from a re-analysis of the deposited data

How the results depend on the processing

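Of 750 values of single clock genes under the alternatives, 710 kept their direction and their side of the threshold, 23 reversed, 11 were no longer called and 6 became called. Genes of the other lists were not followed under the alternatives. Most reversals belong to values near 0. Nr1d2 was at 0.050 in db/db against db/m mice with scaling by library total, and in both db/db groups against db/m Per3 was at 0.0089 with limma on log2(CPM + 1) and at 0.060 with library totals. With each mouse left out in turn, the values that changed sign in db/db against db/m mice were those of Per2 (-0.39 to 0.090), Cry1 (-0.37 to 0.43), Nr1d1 (-0.62 to 0.017) and Nr1d2 (-0.18 to 0.030). Nr1d1 did so in db/db-dapa against vehicle db/db mice (-0.18 to 0.51) and in db/db-dapa against db/m mice (-0.43 to 0.15). In both db/db groups against db/m they were Per1 (-0.0012 to 0.39), Per3 (-0.24 to 0.18), Cry1 (-0.60 to 0.19) and Nr1d1 (-0.47 to 0.067).

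The number of genes called moved more. In db/db against db/m mice (194), DESeq2 called 363, a fit of these groups alone 114, and leaving out a mouse gave 84 (without db/m replicate 1) to 230 (without db/db replicate 3). In db/db-dapa against vehicle db/db mice (0), DESeq2 called 13, limma voom with quality weights 449, and leaving out a mouse 0 to 272 (without db/db replicate 3). In db/db-dapa against db/m mice (164), DESeq2 called 507, limma voom with quality weights 1619, no filter 275, these groups alone 626, and leaving out a mouse 14 (without db/db-dapa replicate 2) to 662 (without db/db replicate 3). In both db/db groups against db/m (314), DESeq2 called 499, limma voom with quality weights 628, and leaving out a mouse 106 (without db/m replicate 1) to 427 (without db/db replicate 1). Of the 10 clock genes, DESeq2 called 1 in db/db against db/m mice, and limma voom with quality weights 2 in db/db-dapa against vehicle db/db mice. Leaving out a mouse gave 0 to 1 in both of these comparisons, 0 to 2 in db/db-dapa against db/m mice and 1 to 2 in both db/db groups against db/m. The cause of these changes was not tested. Scaling by library total moved the median log2 fold change of all genes in db/db against db/m mice to 0.12, from 0.02, and the called genes from 85 higher and 109 lower to 141 higher and 93 lower.

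Replicate numbers do not mark shared animals or litters in the labels. The deviations of same-numbered mice had r over 0.1 in 3 of 9 pairs (-0.323 to 0.563). Differently numbered mice had r from -0.610 to 0.359. The same-number pairs above that range were db/db and db/db-dapa replicates 3 (0.563) and replicates 1 (0.402). Of the 9 mice, 4 correlated best with a mouse of their own number. What these pairs may share was not tested. With the replicate number as a block, 185, 0, 167 and 259 genes were called in db/db against db/m, db/db-dapa against vehicle db/db, db/db-dapa against db/m and both db/db groups against db/m, with 0, 0, 2 and 2 clock genes. Per3 was at 0.00073 with this block in the last of these, and the block changed no other direction or call among the clock genes.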
